A study of Homo sapiens with 8 samples.

Results

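The S100 genes described here are 10 members of the S100 family on the long arm of human chromosome 1, in and around the epidermal differentiation region: S100A2, S100A4, S100A6, S100A7, S100A8, S100A9, S100A10, S100A11, S100A14 and S100A16. They were chosen by name, as the rows of the gene count table with these 10 symbols out of 16547 genes, together with the m1A regions listed under the same names. All 10 were in the table and all 10 passed the filter on low counts. RNA came from 5637 cells, an established human bladder cancer line. Control cells, labelled WT and titled NC, were compared with cells under stable knockdown of TRMT61A, titled SH. TRMT61A is the catalytic subunit of the enzyme that places N1-methyladenosine (m1A) on tRNA. Each group had 2 samples, and from each both input RNA and RNA pulled down with an antibody to m1A were sequenced. The labels give neither the vector of the control, nor the hairpin, nor whether the knockdown cells were a clone. They also do not say whether the samples were separate cultures, so a p-value here reflects the spread of these samples alone, and that spread may be technical.

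S100 proteins are small calcium-binding proteins with paired EF-hand motifs that act as dimers inside cells, and some of them are released and act on receptors of neighbouring cells. Their genes lie next to those of the cornified envelope, the protein shell of terminally differentiated keratinocytes, and many S100 genes are active in basal and squamous epithelium. S100A8 and S100A9 form calprotectin, an antimicrobial heterodimer abundant in neutrophils and also made by stressed epithelium.

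The input libraries held 30046283 and 42177927 gene counts in control replicates 1 and 2, and 38989448 and 37912238 in knockdown replicates 1 and 2. The 10 S100 genes took 0.185% and 0.183% of these counts in control and 0.180% and 0.2001% in knockdown. TRMT61A stood at 19.8 and 14.7 CPM (read counts scaled to library size) in control against 13.4 and 6.71 CPM in knockdown. The groups did not overlap, yet the difference missed the threshold of edgeR's test (log2 fold change -0.78 ± 0.29 SE, adjusted p = 1.00). Epithelial markers matched the labelled cell type: all 6 were detected, with a summed level of 2622 to 2901 CPM, and KRT5, a basal keratin, stood at 416 to 569.7 CPM. The 7 myeloid markers, checked because S100A8 and S100A9 are also myeloid genes, summed to 0.922 to 1.57 CPM. PTPRC, the pan-leukocyte marker, had 5 to 7 reads per library, and CD68, a macrophage marker, had 0 or 1. CD14 had 24 and 14 reads in control and 38 and 17 in knockdown. FCGR3B had 0 and 1 in control and 0 and 17 in knockdown, the 17 in replicate 2. The 6 fibroblast markers summed to 38.8 to 53.3 CPM and the 4 endothelial markers to at most 2.62 CPM. In bulk RNA, fewer cells expressing a gene and less RNA per cell cannot be told apart. CPM values are not divided by transcript length, so levels are compared between libraries for the same gene and not between genes.

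Promoter stretches of 4 genes are shown because the secreted S100 genes and S100A4 share a feature that was not used to choose them. The motif TATAAA, on the strand of the gene and 40 to 20 bases before a RefSeq transcript start, was present for 4 of the 10 genes, against 2.86% of 27305 genes with a RefSeq promoter window on GRCh38.p14. Each stretch runs 5′ to 3′ on the gene's strand, with TATAAA in capitals.
S100A9, chr1:153357814-153357843, plus strand: caggagctgccTATAAAtgccgagcctgca
S100A8, chr1:153391084-153391113, minus strand: agcctaaccgcTATAAAaaggagctgcctc
S100A7, chr1:153460662-153460691, minus strand: caggctgagcctTATAAAggactgctcttt
S100A4, chr1:153545817-153545846, minus strand: tggctggggTATAAAtaggtcagacctctg
In S100A9 and S100A8 the motif begins 29 bases before a RefSeq transcript start. For S100A8 this is an inner start, as the RefSeq span of the gene reaches upstream to 153422583. Over all 250 bases before each start and on both strands, TATAAA was present for the same 4 genes, against 3563 of the 27305 genes. In that window GGGCGG, a GC box, was present for 5 of the 10 genes (S100A6, S100A9, S100A10, S100A11 and S100A16), against 46.2% of all genes. The AP-1 motif TGANTCA was present for 1 (S100A2), against 8.06%, and the E-box CANNTG for 8, against 66.7%. A match describes these letters and does not show that a factor binds.

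The m1A data turned on S100A16, whose 5′ end carried a listed region in every sample. The 250 bases before the outer RefSeq start of S100A16 are shown because this region ends there. The 8 bases in capitals lie inside the listed m1A region and the others lie upstream of it (chr1:153613138-153613387, minus strand, GRCh38.p14).
S100A16: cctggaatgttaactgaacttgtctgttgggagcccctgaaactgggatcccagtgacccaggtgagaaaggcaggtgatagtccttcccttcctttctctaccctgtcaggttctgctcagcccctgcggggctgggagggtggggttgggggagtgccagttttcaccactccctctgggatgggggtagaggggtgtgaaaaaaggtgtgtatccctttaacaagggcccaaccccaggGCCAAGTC

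None of the 10 S100 mRNAs passed the test between knockdown and control, and the sizes of their differences varied. S100A8 had the highest ratio of knockdown to control, 1.71-fold, while its partner S100A9 had 1.08-fold. S100A14 had the lowest ratio, 0.708-fold, and the log2 fold changes of S100A2, S100A10, S100A11 and S100A16 lay between -0.17 and -0.10. In the quasi-likelihood test of edgeR, with p adjusted over 13362 genes by the Benjamini-Hochberg method, 0 of the 10 passed (adjusted p = 1.00 for each), and 0 passed with DESeq2 or limma-voom. The edgeR test called 0.0374% of all genes, 0.00748% as higher and 0.0299% as lower. At an unadjusted p under 0.05 it held 1 of the 10, S100A8, against 3.30% of all genes. The median log2 fold change of the 10 genes was -0.04, beside 0.00 for all genes tested, with 5 genes above 0, against 49.8% of all genes, and 5 below.

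**Figure D1:**
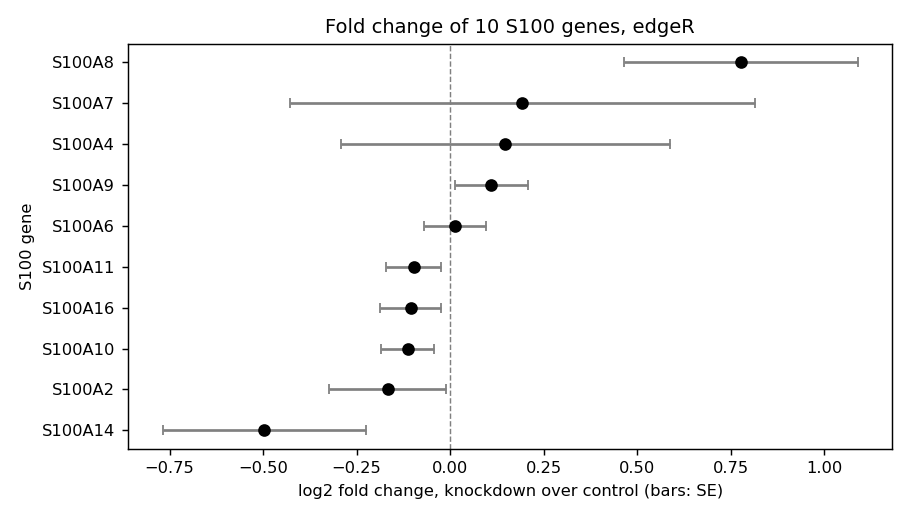
The x axis gives the log2 fold change of knockdown over control inputs and the y axis the 10 S100 genes, with bars for the standard error from edgeR (2 samples per group). S100A8 lies highest at 0.78 and S100A14 lowest at -0.50, and 0 of the 10 passed the adjusted test.

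Among the secreted S100 proteins, S100A8 (chromosome 1, 153390032 to 153422583) had counts of 1823 and 1145 in control replicates 1 and 2, and of 2450 and 3366 in knockdown replicates 1 and 2. Scaled to library size these were 61.5 and 27.1 CPM in control against 63.2 and 87.5 CPM in knockdown. The groups did not overlap, but control replicate 1 lay next to knockdown replicate 1, and control replicate 2 stood apart as the lowest. The control mean was 44.3 ± 24.3 CPM and the knockdown mean 75.3 ± 17.2 CPM (SD, n = 2). The log2 fold change was 0.78 ± 0.31 (SE, edgeR unadjusted p = 0.0352, adjusted p = 1.00), and the unadjusted p was 0.202 with DESeq2 and 0.0132 with limma-voom.

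Single libraries decided whether S100A8 passed. Without control replicate 1 the log2 fold change of S100A8 was 1.48 (edgeR adjusted p = 0.00347), and without knockdown replicate 1 it was 0.99 (adjusted p = 0.0422). Without control replicate 2 it was 0.29 (adjusted p = 1.00), and without knockdown replicate 2 it was 0.52 (adjusted p = 1.00). The direction was the same in all 4 cases, which is no further result, since groups that do not overlap all but fix it. The RefSeq span of S100A8 overlaps that of S100A7A on the opposite strand, and S100A7A had 11 to 37 reads per library.

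S100A9 (153357854 to 153361023), the other calprotectin subunit, had 25662 and 37132 counts in control and 32768 and 39861 in knockdown. Its levels were 865.3 and 877 CPM in control against 845 and 1036 CPM in knockdown, so the groups overlapped and knockdown replicate 2 was the highest. The log2 fold change was 0.11 ± 0.10 (SE, edgeR adjusted p = 1.00). Without knockdown replicate 1 it was 0.25 (edgeR adjusted p = 0.160), and without knockdown replicate 2 it was -0.04. The ratio of S100A9 to S100A8 counts was 14.1 and 32.4 in control and 13.4 and 11.8 in knockdown. The high ratio in control replicate 2 restates its low S100A8 level, as S100A9 was close to equal in the 2 control libraries.

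S100A7 (153457744 to 153460651), known as psoriasin, an antimicrobial protein of inflamed skin, was measured with few reads. Counts were 48 and 17 in control and 41 and 46 in knockdown, or 1.62 and 0.402 CPM and 1.06 and 1.20 CPM. Both extremes were control libraries, and the log2 fold change was 0.19 ± 0.62 (SE, edgeR adjusted p = 1.00), between -0.52 and 1.48 without 1 library. S100A7 has a closely related neighbour, S100A7A, so its few reads are uncertain.

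**Figure D2:**
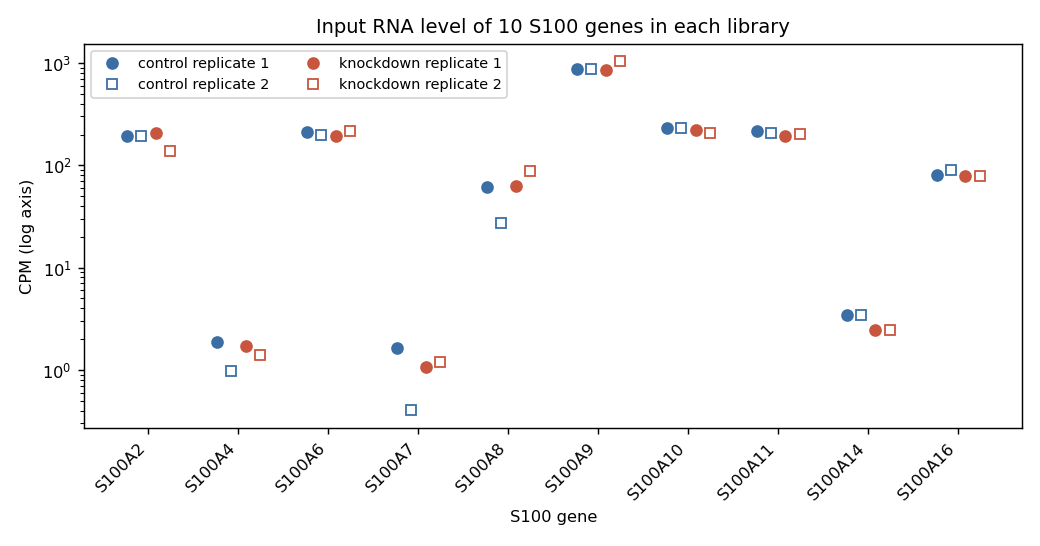
The y axis gives the input level in CPM on a log axis and the x axis the 10 S100 genes, with 1 point per library (circles for replicate 1, squares for replicate 2, blue for control, red for knockdown). Control replicate 2 lies lowest for S100A4, S100A7 and S100A8, and knockdown replicate 2 lies lowest for S100A2, S100A10, S100A14 and S100A16. Points are comparable within a gene only, since CPM is not divided by transcript length.

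S100A2 (153561108 to 153565844) is an S100 protein of basal and squamous epithelium and a known target of the basal transcription factor p63. Its counts were 5789 and 8107 in control and 8015 and 5302 in knockdown, or 195 and 192 CPM in control against 207 and 138 CPM in knockdown. The groups overlapped: knockdown replicate 1 was the highest of the 4 libraries and knockdown replicate 2 the lowest. The log2 fold change was -0.17 ± 0.16 (SE, edgeR adjusted p = 1.00). Without knockdown replicate 1 it was -0.49 (edgeR adjusted p = 0.00776), and without knockdown replicate 2 it was 0.10 (adjusted p = 1.00), so the direction turned on the library kept. TP63, which encodes p63, stood at 258 and 232 CPM in control against 285 and 298 CPM in knockdown. Its log2 fold change was 0.25 ± 0.08 (SE, edgeR unadjusted p = 0.0117, adjusted p = 1.00). TP63 was thus above both control values in each knockdown library, while S100A2 was highest in knockdown replicate 1 and lowest in knockdown replicate 2. A relation between the 2 genes was not tested.

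S100A14 (153614255 to 153616325), an epithelial S100 protein, had 103 and 147 counts in control and 96 and 94 in knockdown. Its levels were 3.47 CPM in both control libraries, and 2.48 and 2.44 CPM in knockdown. The groups did not overlap, and replicates lay within 1.01-fold of each other. The log2 fold change was -0.50 ± 0.27 (SE, edgeR unadjusted p = 0.102, adjusted p = 1.00) and ran from -0.51 to -0.49 without 1 library. Exact 95% Poisson intervals of the counts were 84.1 to 125 and 124 to 173 in control, and 77.8 to 117 and 76.0 to 115 in knockdown. These intervals are of raw counts, not scaled to library size, so they cannot be compared between libraries.

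S100A16 (153606883 to 153613137), the neighbour of S100A14 and broadly expressed, had 81.0 and 89.3 CPM in control against 79.3 and 79.0 CPM in knockdown. The groups did not overlap, though the gap between control replicate 1 and knockdown replicate 1 was small. The log2 fold change of S100A16 was -0.11 ± 0.08 (SE, edgeR adjusted p = 1.00), -0.03 without control replicate 2 and -0.17 without control replicate 1.

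The annexin partners had high counts and tight replicates. S100A10 (151982915 to 151993859), which binds annexin A2 at the plasma membrane and is unusual in the family for not binding calcium, had 233 and 231 CPM in control against 220 and 209 CPM in knockdown. All control values lay above all knockdown values, and the log2 fold change was -0.11 ± 0.07 (SE, edgeR adjusted p = 1.00, -0.08 to -0.15 without 1 library). S100A11 (152032506 to 152037004), a partner of annexin A1, had 219 and 205 CPM in control against 195 and 201 CPM in knockdown. Here too the groups did not overlap (log2 fold change -0.10 ± 0.07, edgeR adjusted p = 1.00, -0.15 without control replicate 2 and -0.05 without control replicate 1). S100A11 has processed pseudogenes elsewhere in the genome, so its counts may include or lack reads shared with them.

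The remaining genes act on the cytoskeleton and on protein turnover. S100A6 (153534599 to 153535991), or calcyclin, had 210 and 197 CPM in control against 194 and 217 CPM in knockdown, and the groups overlapped (log2 fold change 0.01 ± 0.08 SE, edgeR adjusted p = 1.00). S100A4 (153543621 to 153545806), which binds non-muscle myosin and is linked to metastasis, had only 56 and 41 counts in control and 67 and 54 in knockdown. These were 1.89 and 0.969 CPM in control against 1.73 and 1.40 CPM in knockdown, with both extremes in control (log2 fold change 0.15 ± 0.44 SE, edgeR adjusted p = 1.00, between -0.27 and 0.69 without 1 library).

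Counted over the 10 genes, 1 had groups that did not overlap with higher values in knockdown (S100A8), against 15.6% of all genes tested. Lower values without overlap were seen for 4 (S100A10, S100A11, S100A14 and S100A16), against 14.7% of all genes. In either direction this was 5 of the 10, against 30.3% of all genes, and the other 5 overlapped.

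The spread between replicates set S100A8 and S100A2 apart from the other abundant S100 genes. Over 9539 genes with a mean of at least 10 CPM, the median difference between replicates was 0.09 (log2) in control and 0.11 in knockdown. S100A8 differed 2.27-fold between the control replicates, a larger difference than in 99.9% of these genes, and 1.38-fold between the knockdown replicates, more than 97.3%. S100A2 differed 1.02-fold between the control replicates and 1.5-fold between the knockdown replicates, more than 98.7%. S100A9 differed 1.01-fold in control and 1.23-fold in knockdown. S100A6, S100A10, S100A11 and S100A16 differed by 1.00-fold to 1.12-fold within either pair. S100A4 and S100A7, with low counts, differed 1.95-fold and 4.03-fold between the control replicates. Control replicate 2 was the lowest of the 4 libraries for 3 of the 10 genes (S100A4, S100A7 and S100A8), against 21.2% of all genes. Knockdown replicate 2 was the lowest for 4 (S100A2, S100A10, S100A14 and S100A16), against 30.4% of all genes.

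**Figure D3:**
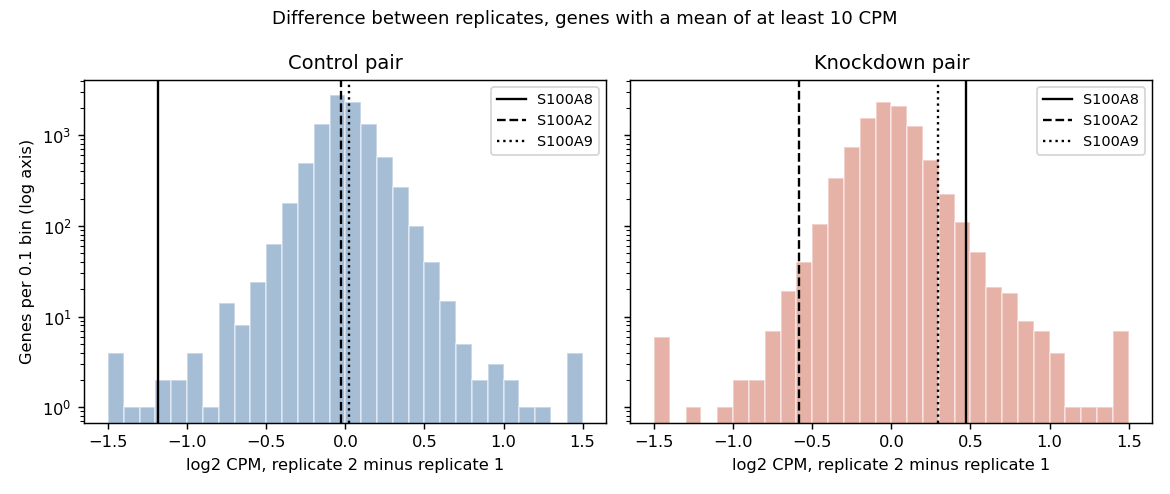
The x axis gives the log2 difference in CPM between replicate 2 and replicate 1, in control (left) and knockdown (right), and the y axis the number of genes per bin on a log axis, for 9539 genes with a mean of at least 10 CPM; the outermost bins also hold genes beyond them. Vertical lines mark S100A8, S100A2 and S100A9, and S100A8 lies in the far tail of the control pair at -1.18.

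Other S100 genes were examined beside these. Of 11 listed, 9 were in the table and 4 were tested, and 0 passed (2 higher, 2 lower, median log2 fold change 0.21). S100A13, which lies next to S100A14, had -0.01 ± 0.16 (SE), S100A3, a hair cuticle protein, -0.16 ± 0.24, S100P 0.44 ± 0.45 and S100A7A 0.65 ± 0.66. The myeloid gene S100A12 had 7 and 3 reads in control and 1 and 0 in knockdown, and was not tested.

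Cornified envelope genes from the same chromosome region had low counts, and 0 of them passed. Of 42 listed genes, 18 were in the table and 8 were tested. Higher values in knockdown were seen for 7, against 49.8% of all genes, and lower values for 1. The median log2 fold change was 0.46, against 0.00 for all genes. Groups did not overlap for 4, each higher in knockdown, against 15.6% of all genes in that direction. The list also held PGLYRP4, a gene of the region that encodes no envelope protein, and PGLYRP4 was among both the 7 and the 4. The 4 of smallest p were SPRR2D (1.33 ± 0.66 SE) and SPRR2A (0.77 ± 0.44), small proline-rich proteins of the envelope, PGLYRP4 (0.98 ± 0.65), a peptidoglycan recognition protein, and FLG (-1.21 ± 0.78), the filaggrin gene (edgeR adjusted p = 1.00 for each). SPRR2D counts were 7 and 18 in control and 18 and 48 in knockdown, and FLG counts were 70 and 49 in control and 52 and 6 in knockdown. Of the 8, 6 were highest in knockdown replicate 2, against 30.5% of all genes, and 5 were lowest in control replicate 2, against 21.2% of all genes. Among the 10 S100 genes these numbers were 3 and 3. The list's summed level was 11.5 and 9.85 CPM in control against 10.3 and 15.3 CPM in knockdown, so knockdown replicate 2 stood apart.

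Among partners and receptors of S100 proteins, 0 passed. Of 15 listed, 14 were in the table and 13 were tested, 7 with higher and 6 with lower values (median log2 fold change 0.01). The 4 of smallest p were AHNAK, the large scaffold bound by the annexin A2 and S100A10 complex (-0.15 ± 0.08 SE), CACYBP, the calcyclin-binding protein (-0.11 ± 0.08), SUGT1 (0.09 ± 0.08) and PLAT, the tissue plasminogen activator (0.24 ± 0.26), each with an edgeR adjusted p of 1.00. ANXA2, the binding partner of S100A10, was at 1480 and 1420.3 CPM in control against 1523 and 1428 CPM in knockdown. ANXA1, the partner of S100A11, was at 748 and 705 CPM in control against 749 and 748 CPM in knockdown. TLR4, a receptor for released S100A8 and S100A9, was at 15.2 and 13.9 CPM in control against 15.99 and 13.2 CPM in knockdown.

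**Figure D4:**
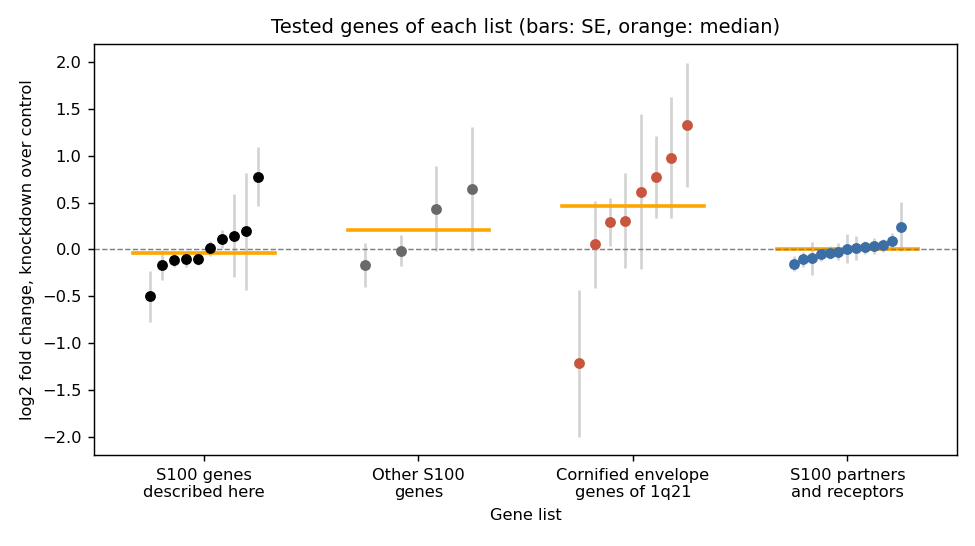
The y axis gives the log2 fold change of knockdown over control and the x axis 4 gene lists, with a point and SE bar for each tested gene and an orange line at the median. The 10 S100 genes centre on -0.04 and the 13 partners and receptors on 0.01. The 8 tested genes of the cornified envelope list, PGLYRP4 included, centre on 0.46 with wide SE bars.

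Noncoding transcripts linked to the 10 genes were few and low. Of 8, 6 were listed under an S100 name and 2 were antisense transcripts, and 4 were tested among 22803 noncoding transcripts. None of the 4 passed edgeR's test (adjusted p = 1.00 for each), 0 had an unadjusted p under 0.05 (4.55% of all transcripts), and 0 passed with DESeq2 or limma-voom, where the edgeR test called 0.0219% of all transcripts. The S100A10 transcript ENST00000478348 had 92 and 112 counts in control and 122 and 139 in knockdown (log2 fold change 0.24 ± 0.23 SE), and ENST00000478574 had 60 and 69, and 79 and 71 (0.09 ± 0.29). The authors' annotation places these transcripts over exons of the coding gene on the same strand, so reads of the 2 classes cannot be told apart. AL450992.1, which lies antisense to S100A11, had 15 to 20 counts per library.

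In the m1A lists, 2 of the 10 genes appeared. The S100A16 region (hg38, chr1:153612952-153613145, 194 bases) was listed in all 4 noncoding lists under ENST00000474991, a noncoding isoform on the minus strand, and a coding isoform of S100A16 begins inside it. It reached from 8 bases before the outer RefSeq start of S100A16 to 185 bases after it, and its outer bound is the 5′ end of that isoform. The fold enrichment that the authors give for it, a linear ratio of pulled-down to input signal, was 25.5 and 7.65 in control replicates 1 and 2, and 10.6 and 7.85 in knockdown replicates 1 and 2. Their score, the negative log10 of the region's p times 10, was 2122 and 456 in control and 1081 and 553 in knockdown. Control replicate 1 had the highest fold, and the other control library had the lowest, so the groups overlapped.

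Within each list the region stood above the median. Its fold exceeded that of 92.3% and 54.7% of regions in control lists 1 and 2, and of 76.5% and 63.2% in knockdown lists 1 and 2. Its score exceeded 89.7%, 75.7%, 89.8% and 80.4% of regions in that order. Lists differ in length (2588, 1696, 2343 and 1384 regions), so these shares describe a list and show no change between lists. The bounds were identical in all 4 lists, which was so for 136 of 6826 distinct noncoding regions. That total also holds regions found in only 1 list, and counts a shared region once for each set of bounds. The shortest list held 1384 regions, and the share among regions present in all 4 lists was not computed. Under the 6 S100 noncoding transcripts, 1 had a region in each list, against 3.88%, 2.47%, 3.34% and 2.00% of 48055 transcripts. Input counts assigned to ENST00000474991 were 0 in 3 libraries and 2 in knockdown replicate 1, while the coding gene S100A16 had 2401 to 3779 counts. The mRNA lists gave no region under S100A16, although the region lies at the start of that gene.

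**Figure D5:**
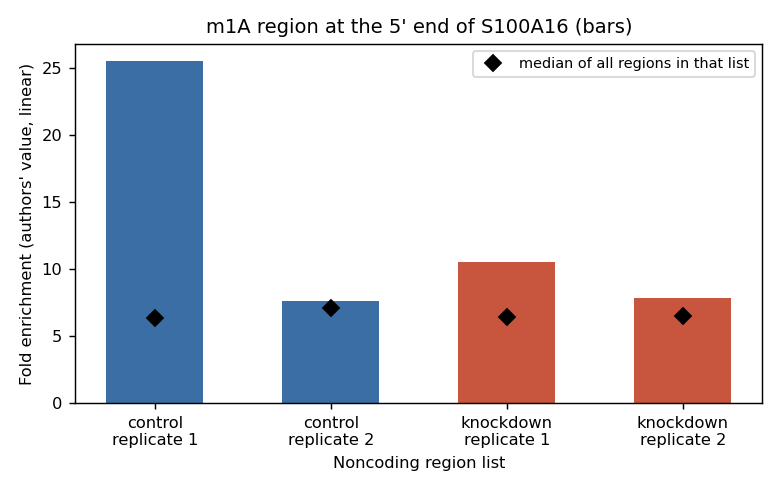
Bars give the authors' fold enrichment of the m1A region at the start of S100A16 (y axis, linear ratio) in each of the 4 noncoding lists (x axis), and diamonds the median fold of all regions in that list. The fold is 25.5 in control replicate 1 and 7.65 to 10.6 in the other lists, with list medians of 6.36 to 7.11.

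S100A14 had 1 listed region, in knockdown replicate 1 of the mRNA lists only (chr1:153615235-153615381, 147 bases), with a fold of 9.04 and a score of 604. It lies 944 to 1090 bases after the RefSeq gene start, and its fold exceeded that of 71.0% of the 5793 regions in that list. No region under S100A14 was listed in the other 3 mRNA lists, and signal below the authors' threshold was not analysed here. In that list 1 of the 10 genes had a region, against 30.9% of tested gene names, and in control lists 1 and 2 and knockdown list 2 it was 0 of 10, against 34.7%, 24.7% and 22.3%. For the other 8 S100 genes no region was listed in either class, S100A9 included with its 25662 to 39861 counts. Between the outermost of the 10 genes, regions in all 4 mRNA lists were found under TCHH, the trichohyalin gene, and IVL, the involucrin gene, which had 104 to 182 and 27 to 105 input counts per library. TCHH had 1 region in each control list, with folds of 92.3 and 94.9, and 2 regions in each knockdown list, with folds of 36.5 and 11.9 in replicate 1 and 29.3 and 12.2 in replicate 2. IVL had folds of 24.6 and 11.7 in the control lists and of 4.49 and 8.47 in the knockdown lists. For both genes every control fold lay above every knockdown fold. The share of all genes with such a difference was not computed, and this difference between separately called lists was not tested. The bounds of the TCHH and IVL regions also differed between lists, so their folds cover unlike stretches. Of the other cornified envelope genes there, each mRNA region was found in a single list. FLG and FLG2 had theirs in knockdown list 2, with scores of 68.6 and 50.7. SPRR1A, SPRR1B and LOR had theirs in knockdown list 1, with scores of 84.2, 84.2 and 106. SPRR2A and SPRR2B had theirs in control list 2, with scores of 83.3 and 120. The share of all genes with a region in a single list was not computed, so these show no gain or loss.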

How the data were processed

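Input RNA and m1A immunoprecipitates of 5637 cells were sequenced for 2 control and 2 TRMT61A knockdown samples. The authors' tables hold, per the file headers, unnormalized counts for each gene and each noncoding transcript in the 4 inputs; 8 further per-sample columns, normalized, were set aside. Per the submitters' processing notes the tools named were STAR, HISAT2 2.0.4, edgeR and HTSeq 0.9.1, on build hg38; the sources used here do not give the step each served or the strand setting. Per the file headers, each m1A list, 1 per sample and RNA class, holds the authors' fold enrichment (a linear ratio) and score (10 times the negative log10 of the caller's p). List starts count from 0 and were printed from 1. Folds and scores were described and not tested.

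The whole table was fitted by the quasi-likelihood method of edgeR 4.0.16 under R 4.3.3, after filterByExpr (minimum count 10) and TMM scaling and without a block, and called at a Benjamini-Hochberg adjusted p of 0.05. Other settings tried were limma-voom (limma 3.58.1), DESeq2 1.42.0, other size factors, a replicate block, other filters and leaving out each library. CPM values use TMM-adjusted library sizes. The fit was tested on simulated data. Gene positions and promoter sequences came from RefSeq on GRCh38.p14, with all 10 genes matched. Transcript lengths were not used here, so the planned length-scaled levels were not computed. Intervals cover counting error only. All 10 S100 genes were named. Of the other S100 genes, cornified envelope genes and partners, any gene past the threshold and the 4 of smallest p in each list were named. TCHH, IVL, FLG2, LOR, SPRR1A, SPRR1B, SPRR2B, TP63, KRT5, PTPRC, CD68, CD14, FCGR3B, S100A12, ANXA1, ANXA2, TLR4 and AL450992.1 were added after their values were seen. The members and lists were chosen with earlier results of these data known.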

Additional observations from a re-analysis of the deposited data

How the results depend on the processing

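Of 13362 genes, 5 passed with edgeR, 24 with DESeq2, 3 with limma-voom and 15 with the replicate block. With no filter on low counts 14 of 16547 genes passed, and without 1 library 11 to 135 of 13625 to 13678 genes (17 without control replicate 1, 11 without control replicate 2, 135 without knockdown replicate 1, 32 without knockdown replicate 2). Same-numbered input libraries did not pair clearly (correlation of their deviations from the group means 0.0996), and the replicate block changed no call among the 10 S100 genes. The m1A lists were not part of that check, and in both groups the list of replicate 1 was the longer. The mRNA lists held 6701 and 4319 regions in control, and 5793 and 3686 in knockdown. The number of these genes past the threshold was 0 under all settings that kept the 4 libraries, and 0 to 2 without 1 library. Their median log2 fold change ran from -0.134 to 0.00672 without 1 library. All 10 kept their direction under DESeq2, limma-voom, other size factors, the block and other filters. Leaving out 1 library gave log2 fold changes of -0.49 to 0.10 for S100A2, -0.27 to 0.69 for S100A4, -0.0701 to 0.0908 for S100A6, -0.52 to 1.48 for S100A7 and -0.0445 to 0.25 for S100A9, so these changed sign; the lone library left is assumed to vary like the other group, and why single libraries mattered was not tested. No noncoding transcript of the S100 genes passed under these settings. The numbers of m1A regions under S100 names per list, and the lists sharing the S100A16 region, were the same at a score of at least 100, by overlap with the annotated gene, and at the stricter overlap between lists. Counts of 17 to 67 for S100A7 and S100A4 limit what could be detected for them. Length-scaled levels were not run.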
